A study of Mus musculus with 17 samples.

Results

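Genes of polyamine metabolism were followed in mouse small intestinal organoids as they differentiated with or without KPT-330, an inhibitor of the nuclear exporter Exportin 1 (XPO1). The 10 genes were taken by their symbols, as 10 of the 26422 genes listed across the tables of the 17 libraries, and each had UMIs (unique molecular identifiers, which count captured transcripts) in all 17 libraries. They are Odc1, Amd1, Srm and Sms, which make polyamines, the antizyme genes Oaz1 and Oaz2, the antizyme inhibitor gene Azin1, and Sat1, Smox and Paox, which break polyamines down. The family was chosen because Odc1 was higher with KPT-330 than without it at each time point of these libraries. The Odc1 values of that contrast are therefore a description, with no test, and the other 9 genes are read against the share of all genes that passed the same test.

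Polyamines are small, positively charged molecules that bind nucleic acids and are needed for growth and translation. Ornithine decarboxylase, encoded by Odc1, makes putrescine, and spermidine synthase (Srm) and spermine synthase (Sms) lengthen it with groups supplied by S-adenosylmethionine decarboxylase (Amd1). Antizymes, whose translation needs a ribosomal frameshift that polyamines promote, bind ornithine decarboxylase and send it to the proteasome, and the antizyme inhibitor of Azin1 takes antizyme away from it. Sat1 encodes the acetyltransferase that starts the breakdown of spermine and spermidine, Paox the oxidase of the acetylated products, and Smox the oxidase that turns spermine back into spermidine. In the intestine the pathway is known for its high activity in proliferating crypt cells.

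The organoids were grown from small intestinal crypts of male and female C57BL/6 mice without engineered alleles, between 1 and 6 months old, and each library pooled many organoids. Before day 0 they were held in a stem-cell-enriching medium of EGF, Noggin and R-spondin 1 (ENR) with CHIR99021, a Wnt pathway activator, and valproic acid (CV), and 2 libraries were made from these ENR+CV organoids at day 0. The rest were moved to ENR with CHIR99021 and the Notch pathway inhibitor DAPT (ENR+CD), which drives differentiation towards Paneth cells, the antimicrobial secretory cells of the crypt, with 7 control libraries and 8 libraries that also received KPT-330 at 160 nM. Days 0.25, 1, 2, 3, 4 and 6 were sampled in both arms, with 1 library per condition except for 2 with KPT-330 at day 3 and 2 in each arm at day 6. What a replicate number stands for is not given, so the spread between these libraries may be technical. Since most conditions have 1 library, p-values rest largely on how the KPT-330 effect varies between days. In the untreated course they rest largely on how libraries depart from a fitted line over time.

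Single cells were profiled by Seq-Well, in which cells and barcoded beads share wells. The analysis used the 19877 cells that the authors kept, with 3458887 to 12433109 UMIs per library and a median of 2676 to 8463 UMIs per cell. Of 19863 distinct barcodes, 14 occurred in more than 1 library, and no pair of libraries shared more than 1. Epcam, the epithelial marker, was at 6.21 to 12.6 UMIs per 10000 UMIs in each library, and summed marker lists of tuft, stromal, immune and endothelial cells did not exceed 0.041, 0.0244, 0.704 and 0.0265. Median mitochondrial percentages per library were 7.37 to 14.4 in control and 6.31 to 16.5 with KPT-330, so the arms overlapped in this measure. At day 6 they were 16.5 and 6.31 in the first and second library with KPT-330, against 10.4 and 7.37 in control. The part of this measure in the results, including gaps between the day 6 libraries, was not tested.

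The regions upstream of Odc1, Sat1 and Oaz1 are shown because these genes had the largest fitted increases with KPT-330. They are taken from RefSeq windows on GRCm38.p6, 5′ to 3′ on the gene's strand, and end before the first annotated start of the gene in either RefSeq or GENCODE. Capitals mark the motif GGGCGG, searched on both strands (the reverse complement is CCGCCC), which was chosen after the windows had been read. The windows lie at chr12:17544623-17544793 (plus strand) for Odc1, chrX:155216450-155216699 (minus strand) for Sat1 and chr10:80826406-80826655 (plus strand) for Oaz1.
Odc1: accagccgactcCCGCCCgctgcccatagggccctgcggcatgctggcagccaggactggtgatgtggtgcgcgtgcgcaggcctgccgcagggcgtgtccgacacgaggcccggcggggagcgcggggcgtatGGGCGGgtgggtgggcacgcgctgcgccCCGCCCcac
Sat1: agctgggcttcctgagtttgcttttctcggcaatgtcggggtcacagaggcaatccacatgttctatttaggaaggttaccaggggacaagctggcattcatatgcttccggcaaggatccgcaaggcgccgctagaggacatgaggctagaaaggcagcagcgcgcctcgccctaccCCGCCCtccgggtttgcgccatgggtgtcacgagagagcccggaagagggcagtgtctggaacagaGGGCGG
Oaz1: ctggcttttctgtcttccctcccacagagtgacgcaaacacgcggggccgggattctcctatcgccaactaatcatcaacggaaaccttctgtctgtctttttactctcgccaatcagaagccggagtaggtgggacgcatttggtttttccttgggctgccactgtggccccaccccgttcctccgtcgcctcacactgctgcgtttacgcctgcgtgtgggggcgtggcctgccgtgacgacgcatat

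The printed stretch of Odc1 held 3 copies of this motif, that of Sat1 held 2 and that of Oaz1 held 0. Over full windows of 300 bases, the motif was in 35.7% of the 32851 windows of all genes and in 8 of the 10 windows of the 8 members that have one, and Srm and Azin1 were not matched. The windows of Paox overlap each other and both hold the motif. Since the motif was also chosen after the windows had been read, nothing is read from this count. The E-box CACGTG, which is its own reverse complement and is bound by Myc with Max, was in 7.15% of all windows and in 1 member window, at position 55 of one of the windows of Sms. It was not in the windows of Odc1, Sat1 or Oaz1, which says only that these letters are not in these stretches.

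The frameshift sites of Oaz1 and Oaz2 are shown because the transcript level alone does not give the amount of antizyme. Each stretch of 30 bases lies between the first and last coding bases of its gene, on the plus strand of GRCm38 (mm10), at chr10:80828280-80828309 for Oaz1 and chr9:65686257-65686286 for Oaz2. Capitals mark the last codon of the first reading frame and the stop codon that the ribosome slips past. In GENCODE's longest coding transcript of each gene, 29 of the 30 bases lie in coding exons and 1 is skipped to join the frames.
Oaz1: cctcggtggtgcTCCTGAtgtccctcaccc
Oaz2: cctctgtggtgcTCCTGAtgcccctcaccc

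The stretches of both genes were the same at 28 of 30 bases. The RNA assay counts these transcripts whether or not the frame is changed.

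Levels of each gene are given as UMIs per 10000 UMIs of the kept cells of a library. This scale differs from the one used by the tests, edgeR's TMM scaling, which corrects for a few abundant genes taking up a larger share of a library. Relative to UMIs per 10000, TMM moved the log2 ratio of KPT-330 to control of every gene upward, by 0.01 at day 0.25, 0.07 at day 1, 0.20 at day 2, 0.34 at day 3, 0.33 at day 4 and 0.39 at day 6. The mean shift was 0.22, and directions that depend on it are named where they occur. The summed Paneth marker list, made of 10 genes, reached 1429 per 10000 in the highest untreated library and 2218 in the highest library with KPT-330.

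**Figure D1:**
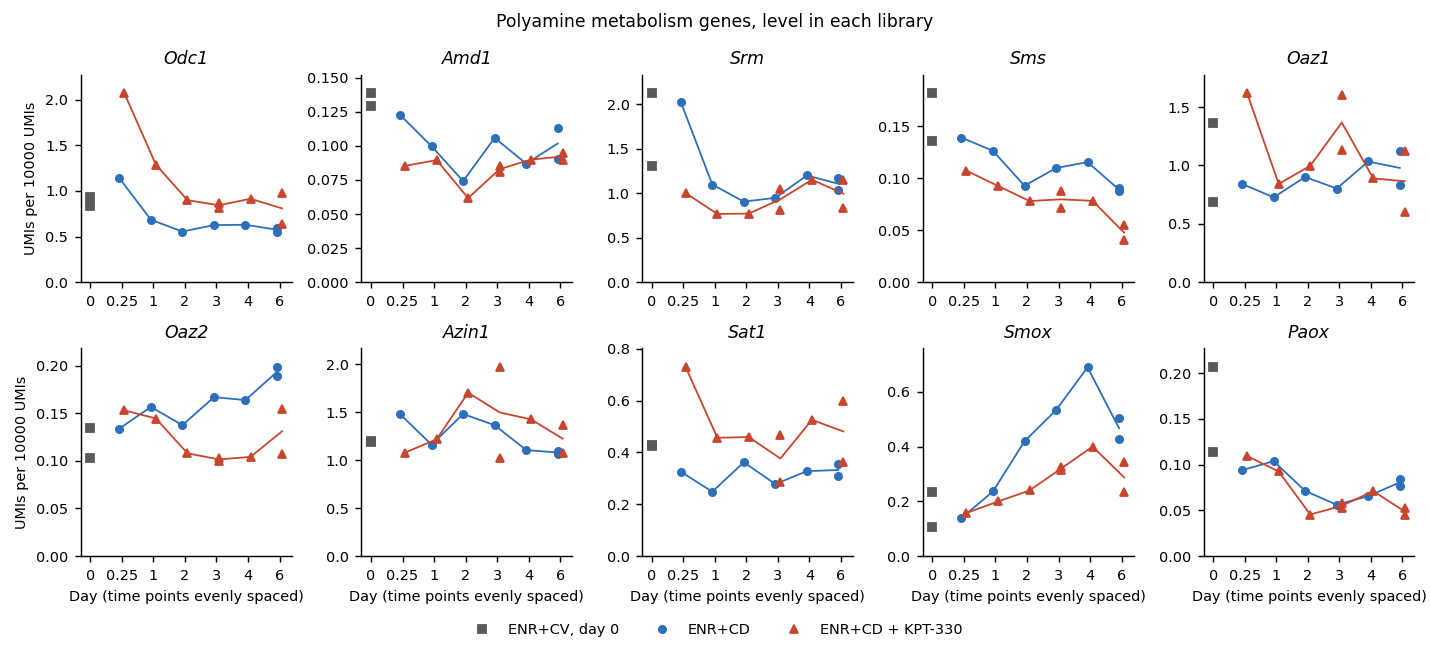
Level of each of the 10 genes in each library (y axes, UMIs per 10000 UMIs, each panel with its own scale from 0) by day (x axes, time points evenly spaced). Grey squares are the 2 ENR+CV libraries, blue circles the 7 ENR+CD libraries and red triangles the 8 libraries with KPT-330, and lines join the means of each time point. Odc1 and Sat1 lie above control at all 6 time points, and Smox lies below it from day 1.

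Of the genes that make polyamines, Odc1 was higher with KPT-330, which is how the family was chosen, and Amd1, Srm and Sms were not called. Differences between these genes were not tested. Odc1 (ENSMUSG00000011179, chr12:17544794-17551505) was at 0.928 and 0.84 UMIs per 10000 in the ENR+CV libraries. In control libraries it was at 1.14 at day 0.25, 0.684 at day 1, 0.554 at day 2, 0.626 at day 3, 0.629 at day 4, and 0.597 and 0.552 at day 6. Libraries with KPT-330 stood at 2.07, 1.29 and 0.899 on days 0.25, 1 and 2, the day 3 pair at 0.818 and 0.867, that of day 4 at 0.914 and the day 6 pair at 0.643 and 0.974. At each time point the libraries with KPT-330 lay above those without it, and both arms were highest at day 0.25.

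The fold difference in Odc1, on the scale of UMIs per 10000 with 0.1 added, was 1.75 at day 0.25, 1.77 at day 1, 1.53 at day 2, 1.30 at day 3, 1.39 at day 4 and 1.35 at day 6. Its mean log2 ratio over the time points was 0.59 ± 0.19 (SD, n = 6 time points). The fitted log2 fold change on the TMM scale was 0.88 ± 0.07 (SE, 15 libraries), and the fitted difference between days 3 to 6 and days 0.25 to 2 was -0.07 ± 0.14. The day 6 libraries with KPT-330 differed from each other by 0.53 on the log2 scale, more than the mean ratio of that day, 0.43.

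The other synthesis genes were tested by edgeR's quasi-likelihood test with Benjamini-Hochberg adjustment over all 12812 genes that passed its filter on low counts. Of these genes, 28.6% were called at an adjusted p below 0.05, 14.4% raised and 14.2% lowered, and all 9 members other than Odc1 passed the filter. Of the 9, 2 were called raised and 1 lowered, and since the family was chosen in this contrast nothing is read from that count. Of Amd1, Srm and Sms, 0 were called by edgeR or DESeq2, while edgeR's unadjusted p of Sms, over 15 libraries, was 0.0383.

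Srm (chr4:148591503-148594993) showed the widest range among the synthesis genes that were tested. Control libraries stood at 2.03, 1.1, 0.905, 0.947 and 1.2 at days 0.25, 1, 2, 3 and 4, and the 2 of day 6 at 1.04 and 1.17. Libraries with KPT-330 stood at 1.00, 0.766 and 0.77 at days 0.25, 1 and 2, the 2 of day 3 at 1.05 and 0.814, that of day 4 at 1.15 and the 2 of day 6 at 0.835 and 1.15. The arms were apart at the first 3 time points and overlapped at days 3 and 6.

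The fitted log2 fold change of Srm over the whole course was -0.03 ± 0.14 (adjusted p = 0.911, edgeR). The fitted difference between days 3 to 6 and days 0.25 to 2 was 0.78 ± 0.21 (adjusted p = 0.268), so the change with time was not called. On the TMM scale the ratio of Srm was above 0 at 3 of 6 time points, against 0 of 6 on the scale of UMIs per 10000. No gene of the 12812 was called in this test of phases by edgeR (percent called 0), although 1333 had an unadjusted p below 0.05 and DESeq2 called 56.

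Sms (chrX:157443855-157492287, minus strand) had a ratio of KPT-330 to control below 0 on the log2 scale at 6 of 6 time points, in UMIs per 10000 and with TMM. Its level ranged from 0.0877 to 0.139 in control, with a median of 0.110, and from 0.0403 to 0.107 with KPT-330, with a median of 0.0781. The fitted log2 fold change was -0.27 ± 0.12 (adjusted p = 0.1002, edgeR), and the counts behind it were low, at 18 to 111 UMIs per library. Amd1 (chr10:40287458-40302186, minus strand) ranged from 0.0742 to 0.123 in control and from 0.0617 to 0.0949 with KPT-330. Its fitted log2 fold change was 0.03 ± 0.13 (adjusted p = 0.890), while the mean log2 ratio of UMIs per 10000 was -0.11 ± 0.10 (SD, n = 6 time points). Reads of Amd1 may be split with its near-identical copy Amd2, which had 11 UMIs in all, so the value of Amd1 is uncertain to that extent.

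**Figure D2:**
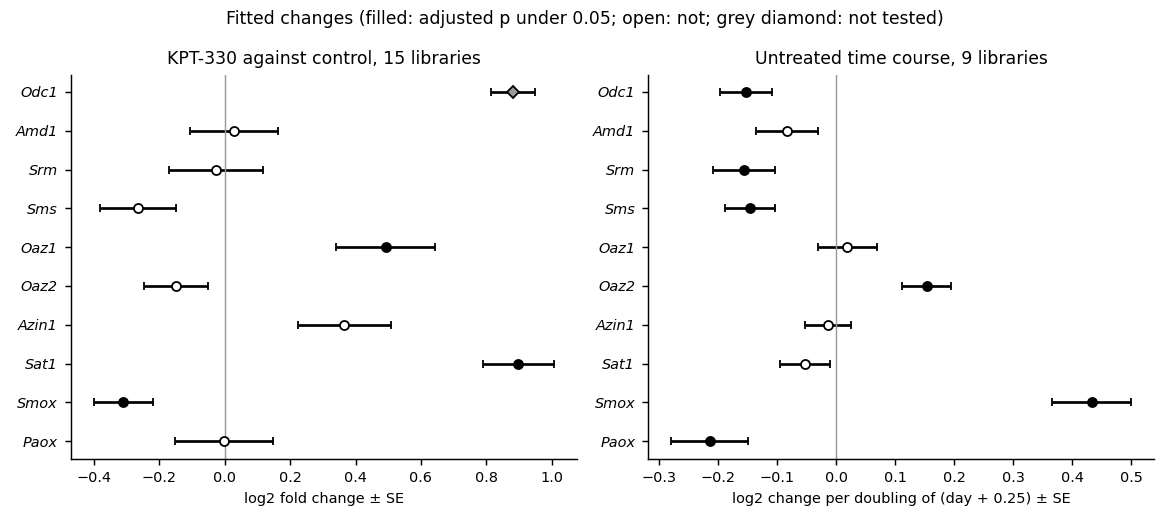
Fitted log2 changes with their standard errors (x axes) for the 10 genes (y axes), for KPT-330 against control over 15 libraries (left) and for the slope per doubling of day + 0.25 in the 9 untreated libraries (right). Sat1 and Oaz1 are raised and Smox lowered with KPT-330, and Smox and Oaz2 rise with time in untreated organoids while Odc1, Srm, Sms and Paox fall.

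Of the regulators of ornithine decarboxylase, Oaz1 (chr10:80826656-80829290) was called raised with KPT-330. Control libraries stood at 0.841, 0.727, 0.901, 0.801 and 1.03 at days 0.25, 1, 2, 3 and 4, and the 2 of day 6 at 1.13 and 0.83. Libraries with KPT-330 stood at 1.62, 0.841 and 0.997 at days 0.25, 1 and 2, the 2 of day 3 at 1.6 and 1.13, that of day 4 at 0.888 and the 2 of day 6 at 0.602 and 1.13. The libraries with KPT-330 lay above control at days 0.25 to 3 and below it at day 4. At day 6 the first lay below both controls and the second between them.

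The fitted log2 fold change of Oaz1 was 0.49 ± 0.15 (adjusted p = 0.0272, edgeR). Its direction at the late time points depends on the scale, with a ratio above 0 at 4 of 6 time points in UMIs per 10000 and at 6 of 6 on the TMM scale. The 2 ENR+CV libraries differed by 0.90 and the 2 day 6 libraries with KPT-330 by 0.80 on the log2 scale, which is more than the fitted change. The call was lost without either day 0.25 library, either day 2 library, the day 3 control library or the second day 6 control library, where the adjusted p was 0.0507 to 0.122.

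Oaz2 (chr9:65668001-65690300), the second antizyme gene, was at 0.134 to 0.198 in control libraries and 0.0998 to 0.155 with KPT-330. At day 3 the control library stood at 0.167 and those with KPT-330 at 0.103 and 0.0998, and at day 6 controls were at 0.189 and 0.198 against 0.107 and 0.155. The libraries with KPT-330 were below control from day 1 on, but the fitted log2 fold change of -0.15 ± 0.10 was not called (adjusted p = 0.265, edgeR). Azin1 (chr15:38487427-38519266, minus strand) ranged from 1.06 to 1.48 in control and from 1.03 to 1.97 with KPT-330. Its 2 libraries with KPT-330 at day 3 stood at 1.03 and 1.97, on either side of the control of that day at 1.36.

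The fitted log2 fold change of Azin1 was 0.37 ± 0.14 (adjusted p = 0.0687, edgeR). It was called raised without either day 0.25 library (0.48, adjusted p = 0.0145) and without the first day 3 library with KPT-330 (0.42, adjusted p = 0.0307). At day 0.25 Azin1 was lower with KPT-330, at 1.08 against 1.48 in control. An antisense gene, Gm49077, overlaps Azin1, and whether counting used strand is not given in the sources used here.

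Among the genes of polyamine breakdown, Sat1 (chrX:155213132-155216449, minus strand) had the largest fitted change of the 9 tested members. Its level was 0.424 and 0.430 in the ENR+CV libraries, and 0.326, 0.248, 0.362, 0.278 and 0.328 in control at days 0.25, 1, 2, 3 and 4, with 0.310 and 0.354 at day 6. With KPT-330 it was at 0.729, 0.457 and 0.459 at days 0.25, 1 and 2, at 0.287 and 0.466 at day 3, at 0.526 at day 4, and at 0.365 and 0.597 at day 6. The libraries with KPT-330 lay above control at each time point, though the first day 3 library with KPT-330, at 0.287, was close to its control at 0.278.

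Sat1 had a fitted log2 fold change of 0.90 ± 0.11 (adjusted p = 2.523e-04, edgeR), close in size to that of Odc1. Leaving out each library or time point in turn gave 0.84 to 0.95, with adjusted p of 1.209e-04 to 0.00378. The difference between the phases was 0.03 ± 0.23 (adjusted p = 0.982). Its mean log2 ratio in UMIs per 10000 was 0.54 ± 0.25 (SD, n = 6 time points), higher at 6 of 6.

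Smox (chr2:131491496-131525922) was called lowered. In control libraries it was at 0.139 at day 0.25, 0.236 at day 1, 0.420 at day 2, 0.534 at day 3, 0.690 at day 4, and 0.429 and 0.505 at day 6. With KPT-330 it was at 0.158 at day 0.25, 0.199 at day 1, 0.240 at day 2, 0.327 and 0.313 at day 3, 0.400 at day 4, and 0.233 and 0.342 at day 6. The arms were close at day 0.25 and separated from day 1, with both arms highest at day 4.

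The fitted log2 fold change of Smox was -0.31 ± 0.09 (adjusted p = 0.0213, edgeR), and the call was lost without either day 2 library, the day 3 control library or either day 4 library (adjusted p = 0.0549 to 0.0659), and without day 3 or day 6 as a whole (0.0816 and 0.0564). Its ratio was above 0 at 1 of 6 time points on either scale. Paox (chr7:140115799-140137224) had the fewest UMIs of the family, 922 over all libraries, and its fitted log2 fold change was -0.00 ± 0.15 (adjusted p = 0.991). Its mean log2 ratio was -0.08 in UMIs per 10000 and 0.01 with TMM, so its direction depends on the scale. Paox overlaps Echs1 on the opposite strand.

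Cell types moved between the arms over the same days, and these shifts stand beside the whole-organoid values. Cells were clustered and named from marker genes, and the names end in "-like" because they rest on those markers alone. The markers came from the authors' lists for their own clusters of these same cells, so they are not independent of the data. Paneth-like cells made up 42.7% and 49.3% of control cells at day 6 and 60.0% and 67.7% of cells with KPT-330. Stem I-like cells, marked by Lgr5, Smoc2 and Axin2, made up 29.9% of control cells at day 4 and 9.98% with KPT-330. Stem III-like cells, marked by the proliferation genes Mki67 and Top2a, made up 55.0% of control cells at day 0.25 and 28.2% with KPT-330.

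The ratios were therefore recomputed from the types with at least 20 cells in each library of that day (2 to 9 types). Their shares among the cells of these types were held, at each time point, at their mean over both arms. Cells of other types were left out, so held ratios cover a part of each library and observed ones the whole. At day 6 only Paneth-like and enteroendocrine-like cells remained. Stem I-like cells, 13.9% and 23.1% of control cells there, were left out because 1 library with KPT-330 held 12 of them. Odc1 was higher at 6 of 6 time points, with a mean log2 ratio of 0.63 ± 0.21 (SD, n = 6 time points) against 0.59 with the observed shares. Sat1 was also higher at 6 of 6, at 0.48 ± 0.24 against 0.54, and Oaz1 was higher at 5 of 6, at 0.36 ± 0.38 against 0.26. Whether held and observed ratios differ, and the part of cell-type shares in the observed ones, was not tested.

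Smox had a held ratio of -0.15 ± 0.15 against -0.41 ± 0.31 observed. Sms went from -0.23 ± 0.08 to -0.04 ± 0.10, and Oaz2 from -0.21 ± 0.20 to -0.02 ± 0.09. Srm was lower at 6 of 6 time points with held shares as with observed ones, at -0.36 ± 0.29 and -0.31 ± 0.35. In a two-sided exact sign-flip test over the 6 time points with Benjamini-Hochberg adjustment over 9 genes, 0 of 9 had an adjusted p below 0.05 with either set of shares. For any to pass, 6 of the 9 genes would have to sit at the smallest possible p, so nothing is read from that count. At an unadjusted p below 0.05, Sat1 and Srm would pass with both sets and Sms with the observed shares, each at 0.03125 (exact), which is the smallest p that 6 time points allow.

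**Figure D3:**
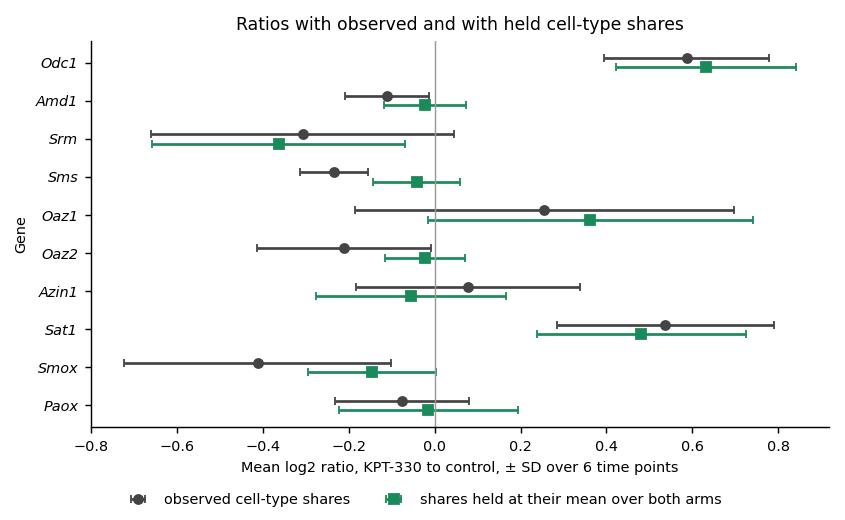
Mean log2 ratio of KPT-330 to control (x axis, from UMIs per 10000 with 0.1 added) for the 10 genes (y axis), with bars for the SD over 6 time points, computed with the observed cell-type shares (grey circles) and with shares held at their mean over both arms (green squares). Held ratios cover only the types with at least 20 cells in each library of the day. Odc1 is at 0.59 observed and 0.63 held, Sat1 at 0.54 and 0.48, Smox at -0.41 and -0.15, and Sms at -0.23 and -0.04.

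Within cell types, Odc1 was higher with KPT-330 in all 9 types with enough cells for a fit. The largest fitted log2 fold change was in stem I-like cells, at 1.46 ± 0.17 (SE), followed by stem II-like cells (0.99 ± 0.17) and early secretory-like cells (0.99 ± 0.22). The list that named stem II-like cells held ribosomal protein genes, but only 1 gene of that list was among the leading genes of their cluster. Cluster 7, led by Fabp1, Ces1f, Gstm3 and Dmbt1 and left without a name, stood at 0.94 ± 0.20. It was 0.71 ± 0.15 in enterocyte-like, 0.70 ± 0.11 in enteroendocrine-like, 0.67 ± 0.18 in stem III-like, 0.66 ± 0.19 in early Paneth-like and 0.51 ± 0.11 in Paneth-like cells. Enterocyte-like cells pool cluster 8 (898 cells with KPT-330, 408 control) with cluster 12 (159 and 2), whose cells had a mean z-score over all cells of 1.47 for the enterocyte markers and 0.99 for the Paneth markers. Of enteroendocrine-like cells, most with KPT-330 fell in cluster 9 (465, against 572 control cells) and most control cells in cluster 6 (949, against 398). Mixtures also differed in stem III-like cells (cluster 1, 355 with KPT-330 and 1018 control, and cluster s2, 142 and 107). The same held in early Paneth-like cells (cluster 10, 682 and 299, and cluster s0, 245 and 260). These values describe the contrast that chose the family, and differences between types were not tested.

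In stem I-like cells of day 1, Odc1 rested on 6 UMIs in control (0.269 per 10000) and 17 with KPT-330 (1.16). Control first, it was 0.403 and 0.832 per 10000 at day 2, 0.233 against 0.833 and 0.743 at day 3, and 0.28 and 0.715 at day 4. At day 6 the control values were 0.226 and 0.24, against 0.586 in the library with KPT-330 that held enough cells. All libraries with KPT-330 lay above all controls, whose highest value was 0.403.

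Over the 9 fits, 61 tests of the other members were made, and 2 of them were called (edgeR). Oaz1 was raised in stem I-like cells, at 0.65 ± 0.14 on the log2 scale (adjusted p = 0.0069), where 4.04% of 9183 genes were called and 2.54% were raised. Its level there, control first, was 0.359 and 0.343 at day 1, 0.823 and 1.11 at day 2, 0.865 against 1.95 and 1.27 at day 3, 1.22 and 1.63 at day 4, and 1.34 and 1.12 against 1.85 at day 6. At each day from day 2 on, the libraries with KPT-330 lay above their controls. Stem I-like cells pool cluster 3 (548 cells with KPT-330, 1507 control) with cluster s3 (142 and 160), so these sums also cover different mixtures of clusters. The mean z-score of the early Paneth markers was 0.70 in cluster s3 and -0.27 in cluster 3.

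Sat1 was raised in Paneth-like cells, at 0.79 ± 0.20 (adjusted p = 0.0365), where 4.07% of 10040 genes were called and 2.27% were raised. Its level, control first, was 0.339 and 0.407 at day 2, 0.218 against 0.214 and 0.35 at day 3, 0.295 and 0.628 at day 4, and 0.265 and 0.379 against 0.3001 and 0.674 at day 6. The arms overlapped at days 3 and 6. The call was lost without the second day 3 library with KPT-330 (adjusted p = 0.0631), the first day 6 control library (0.101) or the second day 6 library with KPT-330 (0.106), and with cells named by their highest marker score (0.0546). Most Paneth-like cells with KPT-330 fell in cluster 0 (1764, against 974 control cells) and most control cells in cluster 2 (1195, against 969), so these sums cover different mixtures of clusters.

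The remaining tests within types were not called. The share of genes called in either direction was 3.6% in early Paneth-like, 2.02% in enteroendocrine-like, 1.88% in enterocyte-like and 1.41% in cluster 7 cells, and 0.724%, 0.504% and 0.347% in stem II-like, early secretory-like and stem III-like cells. Raised genes made up 2.14%, 0.851%, 0.764%, 0.778%, 0.56%, 0.475% and 0.28% in that order, and lowered genes 1.46%, 1.17%, 1.12%, 0.627%, 0.163%, 0.0288% and 0.0671%, with 1.5% lowered in stem I-like and 1.8% in Paneth-like cells. Fitted changes of Sat1 were above 0 in each of the 9 types and ranged from 0.11 ± 0.17 in enterocyte-like to 0.92 ± 0.25 in stem III-like cells. In enterocyte-like cells the direction depends on the scale, since the mean log2 ratio in UMIs per 10000 was -0.05 ± 0.25 (SD, n = 4 time points). Those of Oaz1 ranged from 0.18 ± 0.21 in enterocyte-like to 0.75 ± 0.21 in stem II-like cells. Smox, lowered in whole organoids, was not called in a type, and its largest fitted decrease with an unadjusted p below 0.05 was -0.29 ± 0.14 in stem I-like cells (adjusted p = 0.301). Srm had fitted changes of -0.65 ± 0.19 in stem II-like cells (adjusted p = 0.149) and -0.57 ± 0.19 in early secretory-like cells (adjusted p = 0.282).

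**Figure D4:**
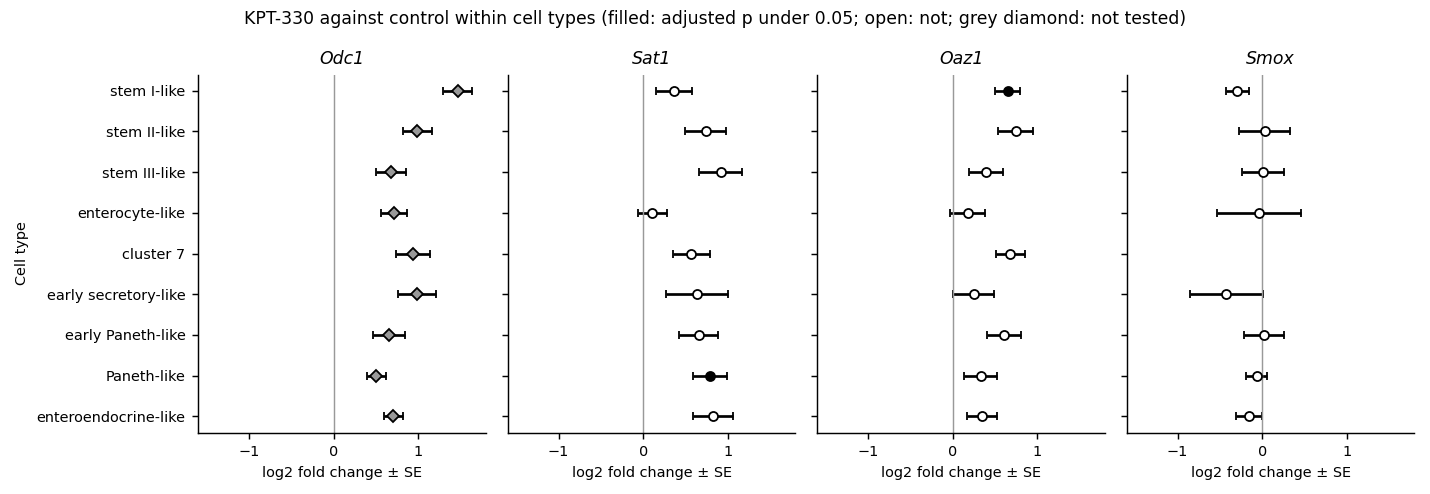
Fitted log2 fold changes of KPT-330 against control with their standard errors (x axes) for Odc1, Sat1, Oaz1 and Smox within 9 cell types (y axis). Grey diamonds are untested Odc1 values, filled circles have an adjusted p below 0.05 (Oaz1 in stem I-like and Sat1 in Paneth-like cells), open circles do not, and Smox in cluster 7 did not pass the filter on low counts.

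In untreated organoids, 3 of the 4 synthesis genes were called lowered with time. The slope was not a value the family was chosen on, but the 7 control libraries in this fit were also the comparator of that choice. The slope was fitted per doubling of day + 0.25 over the 9 libraries without KPT-330, and medium and time change together from day 0 on, so they cannot be told apart. Replicate number also partly follows time here. Libraries of days 0.25 and 1 carried number 1, those of days 2, 3 and 4 number 2, and only days 0 and 6 had both. Of 12493 genes tested, 49.7% were called by edgeR, 25.2% raised and 24.5% lowered, so a call by itself is common here. All 10 members were tested, of which 2 were called raised and 4 lowered.

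Odc1 had a slope of -0.15 ± 0.04 (SE, adjusted p = 0.0123, edgeR), Sms of -0.15 ± 0.04 (adjusted p = 0.0129) and Srm of -0.16 ± 0.05 (adjusted p = 0.0257). The Odc1 call was lost for day 6 against day 0 (adjusted p = 0.0536), and that of Srm there (0.068) and with a slope on the order of the time points (0.0687). The slope of Amd1, -0.08 ± 0.05, was not called (adjusted p = 0.210). Srm started from 1.30 and 2.12 in the ENR+CV libraries, a gap of 0.66 on the log2 scale, and its call was lost without the second of them (adjusted p = 0.0836). The median slope of the 4 synthesis genes was -0.15, against 0.01 over all genes tested.

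Smox had the steepest slope of the family, at 0.43 ± 0.07 (adjusted p = 3.570e-04, edgeR), from 0.107 and 0.236 in the ENR+CV libraries to a highest level of 0.690 at day 4. Oaz2 also rose, at 0.15 ± 0.04 (adjusted p = 0.0092), with 0.103 and 0.134 in the ENR+CV libraries and 0.189 and 0.198 in those of day 6. Paox fell, at -0.21 ± 0.07 (adjusted p = 0.0176), with 0.114 and 0.206 in the ENR+CV libraries and 0.0845 and 0.0766 in those of day 6, and its call was lost without the second ENR+CV library (adjusted p = 0.128). Sat1, Oaz1 and Azin1 had slopes of -0.05 ± 0.04, 0.02 ± 0.05 and -0.01 ± 0.04, and were not called (adjusted p = 0.318, 0.777 and 0.776).

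Across cell types of the untreated libraries, the members took different patterns, given here as a description because the types were clustered from the same cells. The measure is the log2 ratio of a gene's level in a type to its level in the rest of the same library, averaged over libraries with at least 20 cells of the type. Odc1 was lowest in stem I-like cells, at 0.275 ± 0.0663 UMIs per 10000 (SD, n = 6 libraries), and below the rest in 6 of 6 libraries (log2 ratio -1.06 ± 0.31). Its ratio was highest in enteroendocrine-like cells (0.39 ± 0.36), above the rest in 7 of 8 libraries, and in stem III-like cells (0.36 ± 0.43), above it in 8 of 9, and these means differed by less than their SDs.

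The ratio of Odc1 was 0.19 ± 0.13 in Paneth-like, 0.02 ± 0.41 in stem II-like, -0.14 ± 0.75 in early Paneth-like, -0.21 ± 0.45 in early secretory-like, -0.33 ± 0.23 in enterocyte-like, -0.45 ± 0.35 in early enterocyte-like and -0.55 ± 0.63 in cluster 7 cells. Neighbours in this order differed by less than the larger of their SDs. Mean levels rest on different libraries and days, so their order is not that of the ratios. They were 0.919 ± 0.32 UMIs per 10000 in stem III-like (n = 9), 0.884 ± 0.115 in enteroendocrine-like (n = 8), 0.783 ± 0.298 in stem II-like (n = 8), 0.678 ± 0.199 in early secretory-like (n = 4), 0.657 ± 0.0685 in Paneth-like (n = 5) and 0.652 ± 0.185 in early enterocyte-like cells (n = 4). They were 0.585 ± 0.256 in early Paneth-like (n = 5), 0.501 ± 0.12 in cluster 7 (n = 7) and 0.467 ± 0.0740 in enterocyte-like cells (n = 5). Over libraries, enterocyte-like cells ranged from 0.342 to 0.525 and stem I-like cells from 0.226 to 0.403, which overlap.

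**Figure D5:**
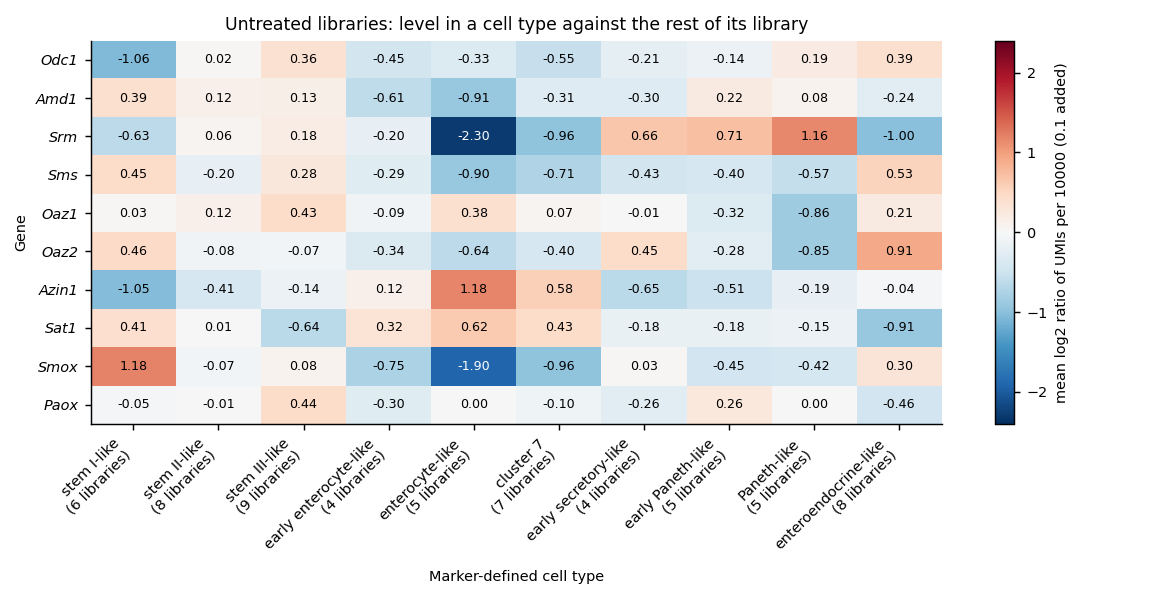
Mean log2 ratio of a gene's level in a cell type to the rest of the same library (colour and printed number, from UMIs per 10000 with 0.1 added) for the 10 genes (rows) and 10 cell types (columns, with the number of untreated libraries that held at least 20 cells). Srm is highest in Paneth-like cells (1.16) and lowest in enterocyte-like cells (-2.30), and Smox is highest in stem I-like cells (1.18), where Odc1 (-1.06) and Azin1 (-1.05) are lowest.

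Srm was the synthesis gene with the widest differences between types. It stood at 1.74 ± 0.156 UMIs per 10000 in Paneth-like cells, above the rest in 5 of 5 libraries. Early Paneth-like cells were close to that, at 1.69 ± 0.308 (5 of 5), and early secretory-like cells had a higher mean level, 2.39 ± 0.857 (4 of 4). In enterocyte-like cells Srm stood at 0.159 ± 0.0613, below the rest in 5 of 5 libraries. Sms was above the rest in 6 of 6 libraries in stem I-like cells (log2 ratio 0.45 ± 0.21), the type with the lowest Odc1, and in 7 of 8 in enteroendocrine-like cells (0.53 ± 0.49). Amd1 was above the rest in 5 of 6 libraries in stem I-like cells (0.39 ± 0.24) and below it in 5 of 5 in enterocyte-like cells (-0.91 ± 0.23).

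The antizyme genes had their highest ratios in different types. Oaz2 was above the rest in 8 of 8 libraries in enteroendocrine-like cells (0.91 ± 0.35) and 6 of 6 in stem I-like cells (0.46 ± 0.18). Oaz1 was above it in 9 of 9 in stem III-like cells (0.43 ± 0.29) and, to a like extent, in 5 of 5 in enterocyte-like cells (0.38 ± 0.18). Both were below the rest in 5 of 5 libraries in Paneth-like cells (Oaz1 -0.86 ± 0.32, Oaz2 -0.85 ± 0.40). Azin1 was above the rest in 5 of 5 libraries in enterocyte-like cells (1.18 ± 0.29) and 7 of 7 in cluster 7 (0.58 ± 0.20), and below it in 6 of 6 in stem I-like cells (-1.05 ± 0.20).

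Smox was higher in stem I-like cells than in the rest in 6 of 6 libraries (1.18 ± 0.17), at 0.953 ± 0.256 UMIs per 10000, against 0.0857 ± 0.0697 in enterocyte-like cells. Sat1 was above the rest in 5 of 5 libraries in enterocyte-like cells (0.62 ± 0.10) and 6 of 6 in stem I-like cells (0.41 ± 0.17), and below it in 8 of 8 in enteroendocrine-like cells (-0.91 ± 0.60). Paox was above the rest in 8 of 9 libraries in stem III-like cells (0.44 ± 0.29).

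Other genes of the pathway were followed in lists, and 38 of 43 passed the filter. With KPT-330, 9 of the 38 were called raised and 4 lowered, against 14.4% and 14.2% of all genes, with a median log2 fold change of 0.06 against -0.00 over all genes. Slc3a2, a subunit of amino acid transporters that has been tied to polyamine transport, was the most raised of 5 genes of polyamine oxidation and transport, at 0.98 ± 0.15 (adjusted p = 7.957e-04, edgeR), and the other 4 of that list were not called. Its level was 1.11 in control and 2.23 and 2.60 with KPT-330 at day 3, and 1.34 and 1.42 against 2.14 and 2.88 at day 6.

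Of 9 ornithine and arginine enzymes, 3 were called raised and 1 lowered, where 28.6% of all genes were called in either direction. Ornithine aminotransferase (Oat), which competes with ornithine decarboxylase for ornithine, had a log2 fold change of 0.67 ± 0.16 (adjusted p = 0.0095, edgeR), and Arg1, an arginase, which makes ornithine, of -1.50 ± 0.33 (adjusted p = 0.0056) from 120 UMIs in all. The other arginase gene, Arg2, had 10322 UMIs and was not called, at 0.31 ± 0.30 (adjusted p = 0.476). Of 10 genes of the methionine cycle and methylthioadenosine salvage, 3 were raised and 1 lowered, with Adi1, a salvage enzyme, at 0.63 ± 0.10 (adjusted p = 7.890e-04). In the hypusine pathway, which uses spermidine to modify eIF5A, Dohh was raised, at 0.30 ± 0.07 (adjusted p = 0.0066), and Eif5a, Eif5a2 and Dhps were not called. Amd2 and Sat2 had 11 and 7 UMIs in all, and Oaz3 and Azin2 had 0 UMIs.

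Of 10 genes of the Myc network that passed the filter, Mlx was raised and Mycl and Mxd3 were lowered with KPT-330. Their log2 fold changes were 0.45 ± 0.09 (adjusted p = 0.0042, edgeR), -0.74 ± 0.13 (adjusted p = 0.0019) and -1.24 ± 0.30 (adjusted p = 0.0089). Myc itself, a known activator of Odc1, was not called, at -0.14 ± 0.08 (adjusted p = 0.225). In the untreated course, 4 of the 38 were called raised and 14 lowered, against 25.2% and 24.5% of all genes, with Mxd1 at 0.50 ± 0.04 (adjusted p = 1.402e-05) and Mxd4 at 0.47 ± 0.05 (adjusted p = 4.310e-05) rising, and Agmat at -0.40 ± 0.04 (adjusted p = 4.111e-05) and Ahcy at -0.29 ± 0.03 (adjusted p = 6.497e-05) falling.

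The gene whose level followed that of Odc1 most closely was Xpo1, which encodes the exporter that KPT-330 inhibits. Over the 17 libraries, which share their arms and days, Pearson's r of log2 CPM with Odc1 was 0.97 and Spearman's rho 0.90 among 13455 genes, and r was 0.95 without the 2 libraries farthest from the median of Odc1. Within the 9 untreated libraries r was 0.92, and within the 8 libraries with KPT-330 it was 0.95. At day 0.25 Xpo1 stood at 1.69 UMIs per 10000 in control against 5.01 under KPT-330, and at day 6 at 0.664 and 0.672 against 1.03 and 1.69. The next genes were Cant1 (r = 0.91), Saysd1 (0.895), Fam57a (0.86) and Gna13 (0.86), given as a description with no test.

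Among the members, Sat1 had the highest correlation with Odc1 over the 17 libraries, at r = 0.76 and rho = 0.68, and Smox the lowest, at r = -0.53 and rho = -0.56. For the synthesis genes r differed between untreated libraries and those with KPT-330. These sets are unlike, since only the untreated set includes ENR+CV libraries of day 0. In the 9 untreated libraries it was 0.76 for Amd1, 0.79 for Srm and 0.76 for Sms, and in the 8 libraries with KPT-330 it was -0.34, -0.30 and 0.44. Points within an arm share its time course, and these values are a description.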

How the data were processed

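Organoid cells were profiled by Seq-Well S3, and STAR was used by the authors for alignment to the mm10 genome, after which they collapsed UMIs with the Drop-seq pipeline and deposited 1 table of UMI counts per gene and cell for each library. Whether counting used strand is not given in the sources used here. The cells kept were those the authors kept after limits of more than 500 genes, fewer than 30000 UMIs and less than 35% mitochondrial UMIs and after removal of doublets with DoubletFinder, and no doublet caller was run here. Counts were summed per library, or per library and cell type with at least 20 cells, and tested with edgeR 4.0.16 (TMM, quasi-likelihood, Benjamini-Hochberg adjustment over all genes that passed edgeR's filter, threshold 0.05). The KPT-330 fit held the day as a factor over 15 libraries, and the untreated course was a slope over 9. Library totals were 3458887 to 12433109 UMIs. Intervals cover the spread of libraries around each fit, which includes changes of the KPT-330 effect between days.

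Cells were clustered with Seurat 5.3.0 and sctransform 0.4.2 (R 4.3.3) on 3000 variable genes without the members, with 9 components and resolution 0.45, then 14 components and resolution 0.3 in a second tier, giving 17 clusters. They were named from 100 marker genes, taken from the top of the authors' lists for their own clusters of these cells. Levels, exact sign-flip tests over 6 time points and ratios (0.1 UMIs per 10000 added) were computed in Python 3.11.15 with scipy 1.17.1. Gene positions are GENCODE on GRCm38 and upstream sequences RefSeq. Scripts were tested on simulated data. Named were all 10 members, up to 8 genes of the other lists by smallest p with KPT-330 and up to 4 in the untreated course, and the 5 genes most correlated with Odc1. Myc, Arg2, Eif5a, Eif5a2, Dhps and the paralogues were named outside that rule, after their values were seen. The members and lists were chosen with earlier results of these data known. Alternatives were DESeq2 1.42.0, other size factors, no filter, all barcodes within the limits, other clusterings, the replicate number as a block, and leaving out each library or time point.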

Additional observations from a re-analysis of the deposited data

How the results depend on the processing

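With KPT-330, 3 of 9 tested members were called, and leaving out 1 library or time point gave 1 to 4: 1 without day 2 or day 3, either day 2 library or the day 3 control library, and 4 without the first day 3 library with KPT-330. With no filter on low counts 4 were called. The sign-flip test called 0 with observed and 0 with held cell-type shares, but 6 of 9 genes would have to sit at its smallest p for any to pass, so this says nothing about stability. The test of phases called 0 members, and 1 with no filter on low counts. Within cell types 2 were called, against 5 with clusters at resolution 0.8, 6 with no filter, and 1 to 3 with a library left out. The mean log2 ratio of Odc1, 0.59, was 0.31 with 1 added in place of 0.1, and 0.54 to 0.63 with a library left out. The untreated course called 6 of 10 members, and 4 to 6 with a library left out, 5 with a slope on the order of the time points and 4 for day 6 against day 0. These causes were not tested.

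Direction turned for members that were not called. Amd1 with KPT-330 (0.03) was -0.034 without day 4, -0.071 without day 6, -0.11 in the sign-flip test, -0.023 with held shares, and -0.038 to 0.10 with a library left out. Srm (-0.03) was 0.12 without day 0.25, 0.022 without day 1, and -0.12 to 0.12 with a library left out. Azin1 (0.37 in the TMM fit) was -0.055 with held shares in UMIs per 10000, where it was 0.077 with observed shares. Scale, shares and the cell types covered all changed there. Paox (-0.00) was 0.064 without day 2, 0.082 without day 6, and -0.087 to 0.066 with a library left out. In the untreated course, Oaz1 (0.02) was -0.033 to 0.094 and Azin1 (-0.01) -0.057 to 0.0067 with a library left out, and Azin1 was 0.0023 for day 6 against day 0.

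Only day 6 held both replicate numbers in both arms, where the differences between replicates correlated at r = 0.37 over 13455 genes, 1 time point that does not show the numbers to pair the samples. With the replicate block, 3 members were called with KPT-330, 0 in the test of phases, 6 in the untreated course and 4 within cell types. Over all single-gene comparisons with an alternative, including those named above, 421 kept their direction and call or, for ratios across cell types, stayed within their SD. Another 33 kept their direction but lost a call, 6 gained a call, 27 turned direction and 1 moved by more than its SD. Low counts limit Sms, Amd1 and Paox most, with as few as 18, 31 and 20 UMIs in a library.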
